A study of Saccharomyces cerevisiae with 41 samples.

Results

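Nucleotides 2 to 290 of yeast 18S rRNA hold the 5′ end of the molecule and the first helices of its 5′ domain. They were taken by position from the table of drop-off rates, which makes 289 of 1799 nucleotides. Nucleotide 1, whose rate is 1 throughout the table, was dropped. A drop-off rate is a fraction that describes how often reverse transcripts end at a position, and chemical adducts on the RNA raise it. Its mean over the 1799 nucleotides was 0.0292 in Enp1, for example, so it is not a share of all transcripts.

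In Saccharomyces cerevisiae BY4741, particles were pulled down through a tagged protein, and chemical probing was read on 20S pre-rRNA or 18S rRNA purified from them. With the reagent 1M7, particles came from strains with HTP-tagged Enp1 (2 samples), Ltv1 (2), Rio2 (2), Tsr1 (3) and Rio1 (3), and with TAP-tagged Nob1 (2), each with 20S pre-rRNA. TAP-tagged Fun12 gave 80S ribosomes with 18S rRNA (3 samples) and, from a strain in which a GAL promoter drives HA-tagged Fap7, the 80S-like particles (2), which hold 20S pre-rRNA. Untreated samples formed a mid-early control of 20S RNA (4 samples, 1 each from Enp1, Ltv1, Tsr1 and Rio2 strains) and a late control of 18S RNA (3 samples, 1 from the Nob1 strain and 2 from the Fun12 strain). The reagent NAI was used on Tsr1 (2 samples) and Rio1 particles (1) and on 80S ribosomes (2), beside solvent (DMSO) samples of Tsr1 (2) and 80S (2), and DMS was used on 80S ribosomes (3) beside its own control (3). The 41 samples were deposited as 17 columns of means, so a value has neither replicate values nor a read depth beside it. An SD given for a stage therefore describes how its purifications, which are different particles, differ from one another. The SE and p-value of a difference between stages rest on that spread, and not on error between replicates.

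Enp1, Ltv1, Tsr1 and the kinase Rio2 are assembly factors of cytoplasmic pre-40S particles, Nob1 is the nuclease that makes the 3′ end of 18S rRNA, Rio1 is a kinase that acts late, and Fun12 is the initiation factor eIF5B, which joins subunits. Fap7 is an ATPase needed for the last steps. 20S pre-rRNA already has the mature 5′ end and carries an extra piece at its 3′ end. The 5′ domain is the first part of the small subunit rRNA to be made and forms the body of the subunit together with early binding ribosomal proteins. In the nucleolus the 18S 5′ end pairs with U3 snoRNA, and a stretch of this region pairs with U14 snoRNA. In the finished subunit the 5′ end contributes to the central pseudoknot, and part of the region forms expansion segment 3. 1M7 and NAI acylate the 2′ hydroxyl of flexible riboses, while DMS methylates unpaired adenines and cytosines.

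The region is shown whole because each result below is a position in it. Capitals mark the nucleotide on the 5′ side of each of the 56 stops whose mean 1M7 reactivity over the 8 purifications was at least 0.3. Reverse transcriptase stops 1 nucleotide before an adduct, so the modified base lies 5′ of the listed stop, and stops are named below by the listed position.
18S, 1 to 290: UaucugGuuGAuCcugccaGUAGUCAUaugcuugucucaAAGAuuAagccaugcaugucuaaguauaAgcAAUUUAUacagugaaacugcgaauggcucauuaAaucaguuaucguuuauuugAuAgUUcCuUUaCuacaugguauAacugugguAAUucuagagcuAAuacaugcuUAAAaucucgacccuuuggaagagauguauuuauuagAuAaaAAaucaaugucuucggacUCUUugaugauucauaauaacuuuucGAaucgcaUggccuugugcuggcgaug

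The stretches that carry the differences are given again with their surroundings, with the 5′ neighbours of the stops in capitals. Apart from the first 12 stops and the 4 stops of a tetraloop, each is a run of at least 3 stops that reached a reactivity of 0.3 in at least 3 of the 8 1M7 columns, a rule set after the values had been seen.
Stops 2 to 13: UAUCUGGUUGAUccugccag
Stops 21 to 28: uccugccaGUAGUCAUaugcuugu
Stops 72 to 78: guauaagcAAUUUAUacagugaa
Stops 132 to 137: gauaguucCUUUACuacauggu
Stops 157 to 160: acugugguAAUUcuagagcu
Stops 178 to 183: auacaugcUUAAAAucucgacc
Stops 220 to 222: uuagauaaAAAaucaaugu
Stops 232 to 235: ucaaugucUUCGgacucuuu
Stops 238 to 242: ucuucggaCUCUUugaugauu
Stops 265 to 267: aacuuuucGAAucgcaugg

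Reactivity was the rise of a treated rate over its matched control. It was scaled to a divisor, the average rise over the 8% of 18S nucleotides that rank directly under the highest 2% of the same column. The divisor was 0.0213 for 80S and between 0.0267 and 0.0392 for the other 1M7 columns, so equal rate differences gave higher reactivity in 80S. Enp1, Ltv1, Rio2 and Tsr1 shared the mid-early control, and Nob1, Rio1, 80S-like and 80S shared the late control. The Nob1, Rio1 and 80S-like columns therefore set treated 20S RNA against untreated 18S RNA. Within the region the 2 controls had mean rates of 0.0256 and 0.0259.

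The region was rich in uridine and adenosine. Uridine made up 34.9% of it against 27.0% of the rest of 18S, and guanosine 18.7% against 26.8%. Reactivity of 0.3 or more was reached by 58 stops in Enp1, where 17.5% of all 1799 nucleotides reached it, and by 42 in Ltv1 (16.7% of all), 59 in Rio2 (17.8%), 55 in Tsr1 (15.8%), 64 in Nob1 (17.5%), 53 in Rio1 (16.7%), 54 in 80S-like (15.6%) and 70 in 80S (16.5%). The 80S count was 24.2% of the region, against 15.0% of the rest of 18S. These counts have no test, because each purification is 1 column.

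All 8 of the 1M7 columns reached 0.3 at 11 stops, and 157 stops reached it in none. The 11 stops were U74, U75, A76, U77, A78, A157, A179, A180, A181, A182 and U241. They fall in the printed stretches at stops 72 to 78, 157 to 160, 178 to 183 and 238 to 242. The longest runs of stops with a mean of at least 0.3 were 21 to 28, 72 to 78 and 41 to 44. The longest runs below 0.1 in every 1M7 column were 184 to 190, 97 to 102 and 282 to 287.

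**Figure D1:**
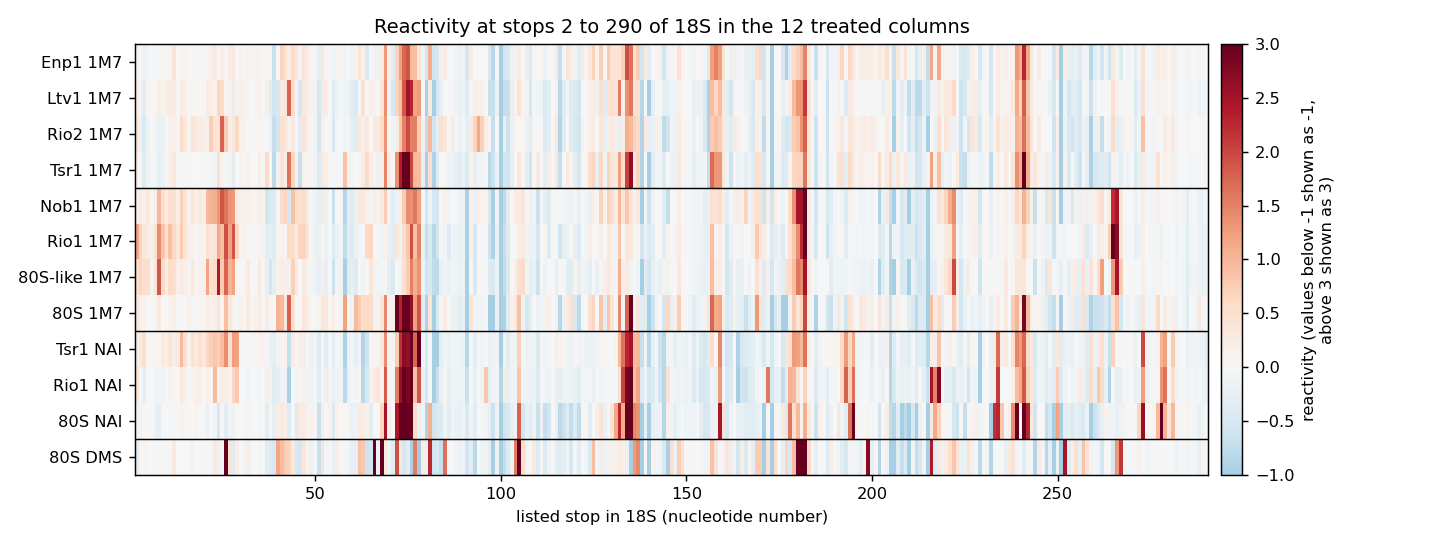
Reactivity at each listed stop from 2 to 290 (horizontal axis) in the 12 treated columns (rows), in units of each column's divisor, with colours limited to the range from -1 to 3. Bands near stops 72 to 78, 132 to 137, 157 to 160, 178 to 183 and 238 to 242 recur across 1M7 columns, and bands at 21 to 28 and 265 to 267 are strongest in the Nob1, Rio1 and 80S-like rows.

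The highest mean over the 8 columns of 1M7 reactivity belonged to A182, which reports on A181 in the adenosine run. A182 had reactivities of 1.48 in Enp1, 2.13 in Ltv1, 1.79 in Rio2, 1.57 in Tsr1, 3.16 in Nob1, 3.20 in Rio1, 2.50 in 80S-like and 1.97 in 80S. The Nob1, Rio1 and 80S-like values lay above the rest, but with 80S included the stages overlapped, and limma gave 0.59 for the log2 difference (SE 0.33) with an adjusted p of 0.309. Over stops 178 to 183 the mean reactivity was 1.72 in Nob1, 1.39 in Rio1 and 1.23 in 80S-like, against 0.63 in 80S and 0.60 to 1.07 in the 4 mid-early columns.

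The AU-rich stretch at stops 72 to 78 showed the other order in its mean, but not at each stop. U75, the second highest, had reactivities of 1.89 in Enp1, 2.52 in Ltv1, 1.98 in Rio2, 3.07 in Tsr1, 1.42 in Nob1, 0.81 in Rio1, 0.75 in 80S-like and 3.00 in 80S. Here Tsr1 and 80S were highest in reactivity and Rio1 and 80S-like lowest. In treated rate Ltv1 was highest, with 0.116 against 0.0932 in 80S. At A78, by contrast, Nob1, Rio1 and 80S-like had reactivities of 1.23, 1.47 and 1.35, and the mid-early columns 0.42 to 1.28. At A76 and U77 the log2 differences between the stages were 0.16 and 0.06. Over the stretch, the mean was 1.97 in Tsr1 and 2.44 in 80S, and 0.92, 0.83 and 0.71 in Nob1, Rio1 and 80S-like. In treated rates, the means over the stretch were 0.0905 in Tsr1, 0.0935 in 80S and 0.0889 in Ltv1. They were 0.0772, 0.0739 and 0.0671 in Nob1, Rio1 and 80S-like. Enp1 and Rio2 had 0.0735 and 0.0756, both below Nob1, so the order did not hold for every column on that scale.

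The stage comparison asks which nucleotides differ between mid-early and late particles. The limma fit compared log2(max(reactivity, 0) + 0.1) of the 4 late columns with that of the 4 mid-early columns over all 504 nucleotides of 18S with a mean reactivity of at least 0.1. In the region 107 nucleotides were tested and 182 fell below that filter. At a Benjamini-Hochberg adjusted p of 0.05, 6 of the 107 were called, or 5.61%, against 6.15% of all tested, so the share of calls in the region was near the background. Rises made up 5 of them (2.58% of all tested rose) and falls 1 (3.57% of all tested fell). The median log2 difference was 0.06 over the tested nucleotides of the region and -0.29 over all tested.

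The 5 rises were U8 near the 5′ end, A26, A222 in an adenosine run, A257 and A266. A266 had reactivities of -0.07, 0.14, -0.27 and -0.13 in Enp1, Ltv1, Rio2 and Tsr1, and of 2.45, 2.72, 2.47 and 0.86 in Nob1, Rio1, 80S-like and 80S. All late columns lay above all mid-early ones, with 80S well below the other late columns. The stage means were -0.08 ± 0.17 and 2.12 ± 0.85 (SD, n = 4 columns each), and the log2 difference was 4.04 (SE 0.60) with a limma adjusted p of 0.00532. Before subtraction, the A266 rate was 0.0490 to 0.0622 in the mid-early columns, 0.148, 0.159 and 0.142 in Nob1, Rio1 and 80S-like, and 0.0709 in 80S. Untreated, A266 had a rate of 0.0574 in the mid-early pool and 0.0527 in the late pool.

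U8 reports on G7, near the 5′ end of the molecule. Its reactivities were 0.03, 0.22, -0.20 and -0.27 in Enp1, Ltv1, Rio2 and Tsr1, and 0.98, 1.43, 1.87 and 0.28 in Nob1, Rio1, 80S-like and 80S. The 80S value was only slightly above that of Ltv1. The log2 difference was 2.88 (SE 0.69, limma adjusted p = 0.0382). Untreated, U8 had a rate of 0.0183 in the 20S pool and 0.0105 in the 18S pool, and with the mean of both controls subtracted from every column the adjusted p was 0.160.

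A26 reports on C25. Its reactivities were 0.08, 0.09, 0.77 and -0.03 in the mid-early columns, the third being Rio2, and 1.63, 1.93, 1.74 and 0.90 in Nob1, Rio1, 80S-like and 80S. Rio2 stood apart from the other mid-early columns, and the stages did not overlap. The log2 difference was 2.77 (SE 0.69, limma adjusted p = 0.0387), and 2.74 with an adjusted p of 0.0484 when the mean of both controls was used.

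A222 had reactivities of -0.12, 0.61, -0.18 and 0.04 in Enp1, Ltv1, Rio2 and Tsr1, and of 1.41, 1.24, 1.98 and 0.73 in Nob1, Rio1, 80S-like and 80S. Ltv1 came close to 80S. The log2 difference was 2.95 (SE 0.72, limma adjusted p = 0.0382).

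A257 was a smaller change, with reactivities of -0.15 to 0.04 in the mid-early columns and of 0.14, 0.24, 0.46 and 0.49 in Nob1, Rio1, 80S-like and 80S. It was the one rise at which 80S was the highest column. The log2 difference was 1.82 (SE 0.47, limma adjusted p = 0.0404).

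The fall was C136, which reports on A135. Its reactivities were 0.50, 0.38, 0.70 and 0.29 in Enp1, Ltv1, Rio2 and Tsr1, and 0.10, -0.03, 0.03 and -0.11 in Nob1, Rio1, 80S-like and 80S. The stages did not overlap, and the late columns were at the level of their control. The log2 difference was -2.11 (SE 0.51, limma adjusted p = 0.0382).

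**Figure D2:**
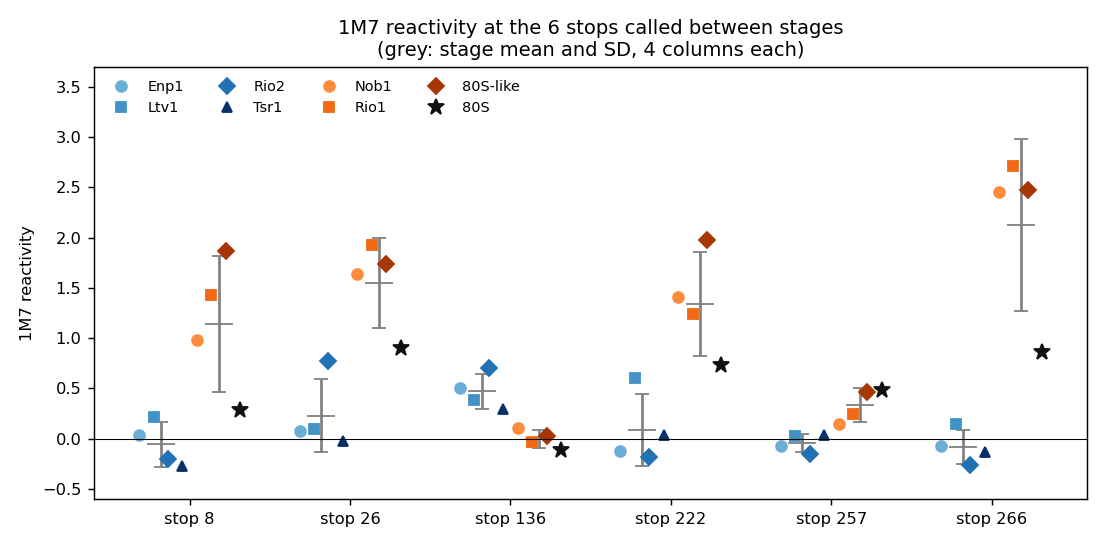
1M7 reactivity (vertical axis) of each purification at the 6 stops called between stages, with the stage mean and SD over 4 columns in grey. At stop 266 the Nob1, Rio1 and 80S-like points sit between 2.45 and 2.72, 80S is at 0.86 and the 4 mid-early points are at or below 0.14.

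Which of the 6 were called depended on the control. With the mean of both controls subtracted from every column, A26 and A266 were called. A222, A257 and C136 then had adjusted p-values of 0.0561, 0.0770 and 0.0531. With no control subtracted, 240 nucleotides of the region were tested, none of the 6 was called and U240 was the one fall.

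Counting only whether the stages overlapped, 7 tested stops were higher in all late than in all mid-early columns, namely the 5 rises, U3 and U27 (3.57% of all tested). Another 7 were lower, namely G115, C136, U137, C160, C239, U240 and G243 (10.1% of all tested). U27 had reactivities of 0.11 to 0.26 in the mid-early columns and 1.35, 1.22, 1.01 and 0.34 in Nob1, Rio1, 80S-like and 80S. Its limma adjusted p was 0.0908. U240, in the pyrimidine run, had reactivities of 1.09, 0.66, 0.92 and 1.09 in Enp1, Ltv1, Rio2 and Tsr1, and of 0.33, 0.28, 0.37 and 0.31 in the late columns, with an adjusted p of 0.152. In the treated rates themselves, 8 of all 289 nucleotides were higher in every late column (2.5% of all 1799) and 20 were lower (7.78%).

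The mean log2 value over the whole region was close in the 2 stages. Mid-early columns had -2.40 ± 0.07 and late columns -2.40 ± 0.13 (SD, n = 4), and the exact two-sided permutation test over 70 assignments gave p = 1. The region minus the rest of 18S gave 0.14 ± 0.06 and 0.18 ± 0.13, with p = 0.657 in the same exact test, whose smallest possible p is 0.0286.

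The count of calls depended on which purification was left out, and most of all on 80S, the one 1M7 column with mature 18S RNA. Without 80S, limma called 32 of 111 tested nucleotides in the region, or 28.8%, against 23.1% of the 524 tested over 18S. The 32 comprised 14 rises (10.1% of all tested) and 18 falls (13% of all tested), and 5 of the 6 calls above were among them, while A257 fell below the filter. With any other column left out, 1 to 4 nucleotides were called, 1 each without Enp1, Tsr1, Nob1, Rio1 or 80S-like, 2 without Rio2 and 4 without Ltv1. A266 was called in each of these fits. At an unadjusted p under 0.05, 25 of the 107 nucleotides passed in the fit with all 8 columns (20.4% of all tested). The fit without 80S still set treated 20S RNA against an 18S control. With the mean of both controls subtracted it called 26 of 113 tested nucleotides in the region, or 23% (17% of all tested). Of these, 23 were among the 32. With no control subtracted it called 47 of 240, or 19.6% (15% of all tested), 27 of them among the 32. Far more nucleotides passed the filter without subtraction, so the counts of 47 and 32 cannot be compared directly. Both of these settings were added after the data had been seen.

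Without 80S the rises clustered near the 5′ end, at stops 21 to 28 and at A265 and A266. U3, G7, U8, U9 and A11 rose in the first 13 nucleotides, and U21, A26, U27 and A28 in the following stretch. The other rises were U106, U178 and A222. U9 went from -0.05 ± 0.14 (SD, 4 mid-early columns) to 0.63 ± 0.18 (SD, 3 late columns), a log2 change of 2.45 (SE 0.47, adjusted p = 0.00976 in limma), and had -0.01 in 80S. A28, which reports on U27 and is itself a 2′-O-methylation site, went from 0.02 ± 0.36 to 1.47 ± 0.37, a log2 change of 2.89 (SE 0.68, adjusted p = 0.0216 in limma), and had 0.13 in 80S. A265 went from 0.37 ± 0.19 to 2.24 ± 0.95, a log2 change of 2.34 (SE 0.52, adjusted p = 0.0176 in limma), and had 0.43 in 80S. At these 3 stops the 80S value lay within or near the mid-early range. This did not hold for all rises, since at U3, U8, A26, U27, A222 and A266 80S lay above every mid-early column. At A26, A222 and A266 it had 0.90, 0.73 and 0.86.

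The 18 falls without 80S lay in and beside the AU-rich stretch (G69, U73, U74, U75, G81), at 134 to 137, at 158 and 159, at 191 to 195 and in the pyrimidine run (C239, U241), with G115 and G281. U73 went from 1.34 ± 0.72 to -0.01 ± 0.20, a log2 change of -3.18 (SE 0.60, adjusted p = 0.00942 in limma), and was at 2.34 in 80S. A135 went from 1.71 ± 0.70 to 0.19 ± 0.28, a log2 change of -2.65 (SE 0.64, adjusted p = 0.0222 in limma), and was at 3.24 in 80S. U241 went from 2.17 ± 0.57 to 0.69 ± 0.34, a log2 change of -1.58 (SE 0.41, adjusted p = 0.0280 in limma), and was at 2.82 in 80S. At all 3 of these stops 80S was above the mid-early mean. Of the 18 falls, G81, G115, C136, U137, U194, G195, C239 and G281 had 80S below that mean. At C136 80S had -0.11 against a mid-early mean of 0.47, and at G81 0.40 against 0.71.

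Means over the stretches are given next. Over stops 2 to 13 the mean 1M7 reactivity was -0.05 to 0.10 in the mid-early columns, 0.35 in Nob1, 0.63 in Rio1, 0.54 in 80S-like and 0.10 in 80S. Over stops 21 to 28 it was 0.16 in Enp1, 0.23 in Ltv1, 0.61 in Rio2, 0.02 in Tsr1, 1.32 in Nob1, 1.03 in Rio1, 1.17 in 80S-like and 0.29 in 80S. Rio2 thus held an intermediate value in this stretch.

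Over stops 265 to 267 the mean 1M7 reactivity was -0.10 to 0.19 in the mid-early columns, 1.68 in Nob1, 2.10 in Rio1, 1.52 in 80S-like and 0.25 in 80S. Over stops 220 to 222 it was -0.08 to 0.40 in the mid-early columns, 1.06 in Nob1, 0.62 in Rio1, 1.00 in 80S-like and 0.24 in 80S. In both stretches 80S was within the mid-early range or just above it.

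The pyrimidine run at stops 238 to 242 gave a mean reactivity of 1.19 in Enp1, 0.95 in Ltv1, 0.94 in Rio2, 1.37 in Tsr1, 0.57 in Nob1, 0.29 in Rio1, 0.24 in 80S-like and 1.17 in 80S. Stops 132 to 137 gave 1.00, 0.93, 0.53 and 1.24 in Enp1, Ltv1, Rio2 and Tsr1, then 0.49, 0.26 and 0.22 in Nob1, Rio1 and 80S-like, and 1.09 in 80S. Stops 157 to 160 gave 0.68 to 1.14 in the mid-early columns, 0.41, 0.30 and 0.34 in Nob1, Rio1 and 80S-like, and 1.05 in 80S. In these 3 stretches Nob1, Rio1 and 80S-like were the lowest columns in reactivity. At stops 132 to 137 Nob1 was close to Rio2, and its mean treated rate was higher, with 0.0591 against 0.0567. The controls there were near equal, at 0.0398 (mid-early) and 0.0399 (late). In the other 2 stretches of this kind, stops 41 to 44 and 62 to 65, 80S was the highest column with 0.89 and 0.61, and the other columns ran from 0.31 to 0.74 and from -0.00058 to 0.28.

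**Figure D3:**
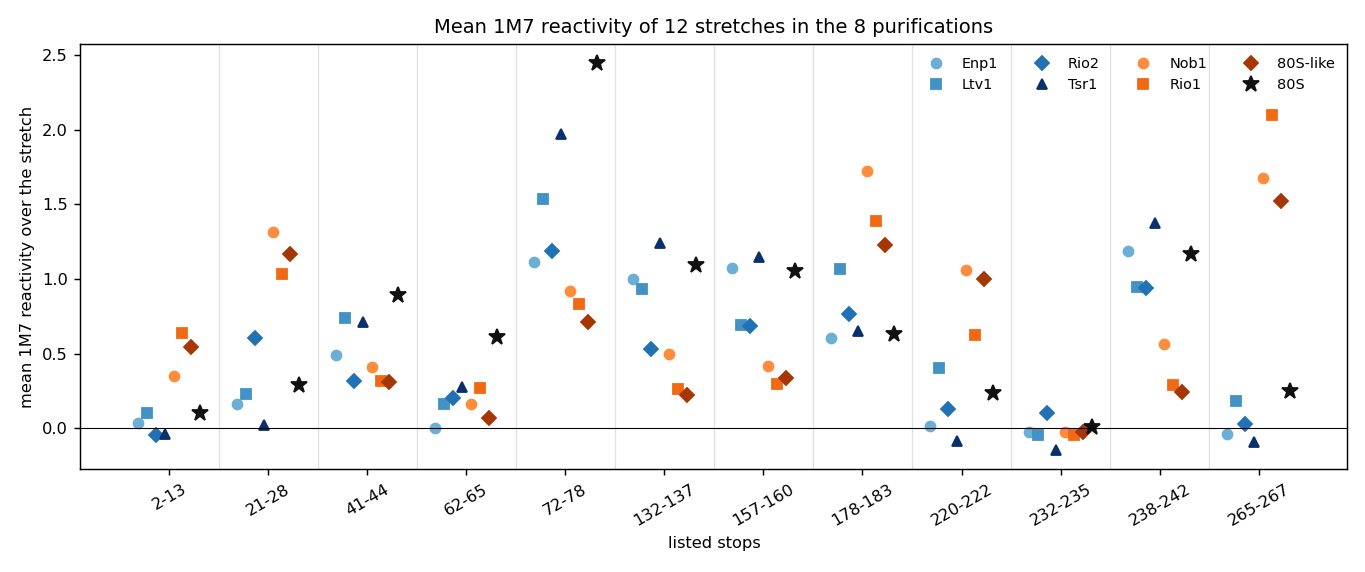
Mean 1M7 reactivity (vertical axis) over 12 stretches of stops chosen after the values were seen (horizontal axis), with 1 point per purification. At stops 2 to 13, 21 to 28, 178 to 183, 220 to 222 and 265 to 267 the Nob1, Rio1 and 80S-like points lie above 80S, and at 72 to 78, 132 to 137, 157 to 160 and 238 to 242 they lie below it.

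Correlations of the treated rates use no control. Over the 289 nucleotides, Pearson's r was 0.95 for Enp1 with Tsr1 and 0.944 for Tsr1 with 80S. It was 0.907 for Nob1 with Rio1, 0.910 for Nob1 with 80S-like and 0.920 for Rio1 with 80S-like. Across these sets it was lower, at 0.679 for Tsr1 with Rio1 and 0.723 for 80S-like with 80S. In the rest of 18S the last 2 values were 0.822 and 0.851. The split was less clear for Ltv1, with 0.834 for Nob1 and 0.890 for 80S, and for Rio2, with 0.789 and 0.804. Nucleotides of 1 molecule are not independent, and each pair shares sequence, untreated stops and the course of the polymerase.

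Pairs of 1M7 columns were also compared nucleotide by nucleotide at a reactivity difference of 0.5, with no test. Between 80S-like and 80S, 88 nucleotides were that far apart (27.9% of all 1799), 46 higher in 80S and 42 lower. Between Tsr1 and Rio1 there were 72 (26.8% of all), between Nob1 and Rio1 28 (12.7% of all), between Ltv1 and Rio2 23 (14.2% of all), and between Enp1 and Tsr1 20 (9.67% of all). The shares of the region were 30.4%, 24.9%, 9.69%, 7.96% and 6.92%. With the mean of the top 10% as divisor the counts were 57 for 80S-like with 80S, 47 for Tsr1 with Rio1, 13 for Nob1 with Rio1 and 10 for Enp1 with Tsr1.

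NAI marked the AU-rich stretch and stops 132 to 137 most strongly. The highest NAI reactivity in Tsr1 was 4.07 at A76, in Rio1 4.22 at U74, and in 80S 5.51 at A135. Over stops 72 to 78 Tsr1 had a mean of 2.48, Rio1 of 2.55 and 80S of 2.70, so Rio1 was not below Tsr1 there, unlike with 1M7. Over stops 132 to 137 the means were 1.55, 1.86 and 2.76 in the same order.

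At the 5 stops that rose with 1M7, NAI reactivity was lower in Rio1 and in 80S than in Tsr1, at some of them only slightly. The median NAI difference over the region was also below 0, at -0.021 for Rio1 minus Tsr1 and -0.016 for 80S minus Tsr1. Over stops 21 to 28 Tsr1 had a mean NAI reactivity of 0.86, Rio1 of 0.29 and 80S of -0.18. At A26 the Tsr1 column had 1.39, Rio1 0.19 and 80S -0.32, and at A266 they had 0.04, -0.30 and -0.24. At U8 they had 0.08, -0.07 and -0.29, so at U8 and A266 Tsr1 itself was near its control. The untreated Tsr1 column served both NAI pre-rRNA columns, NAI on Rio1 is 1 sample, and the difference between reagents was not tested. Between NAI on Tsr1 and on 80S, 85 nucleotides were 0.5 or more apart (22.3% of all 1799), which was 53 with the mean of the top 10% as divisor and 18 with no control subtracted.

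The motif CUUCGG occurs once in 18S, at nucleotides 230 to 235, and its reverse complement does not occur. A UUCG loop closed by a C-G pair is a very stable tetraloop. Of its stops, G234 was high with NAI in all 3 columns and C233 in 80S alone. G234, which reports on C233, had 1M7 reactivities of 0.07 to 0.46 over the 8 columns and NAI reactivities of 1.70 in Tsr1, 2.10 in Rio1 and 2.29 in 80S. C233, which reports on U232, had 1M7 reactivities of -0.06 to 0.08 and NAI reactivities of 0.29, 0.14 and 2.17 in the same order. U232 was below its control in all 3 NAI columns, and G235 had 0.20, -0.0067 and 0.80.

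G195 and U278, chosen after their values were seen, were also higher with NAI than with 1M7. G195 reached NAI reactivities of 1.16, 1.64 and 2.93 in Tsr1, Rio1 and 80S, with 1M7 reactivities of -0.08 to 0.34. U278 reached 1.04, 1.32 and 3.54 with NAI, with 1M7 reactivities of -0.19 to 0.13.

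DMS on 80S ribosomes read the base rather than the ribose. Taking the base 5′ of the stop, 48 of 85 adenines, 5 of 49 cytosines, 1 of 53 guanines and 1 of 102 uridines reached 0.3, which is 55 stops in the region (14.5% of all 1799). Read at the listed position itself, only 28 of the 55 fell on adenine or cytosine, against 53 by the 5′ neighbour.

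The highest DMS reactivities were 6.54 at A68 and 5.95 at U66, which report on A67 and A65, just 5′ of the AU-rich stretch. In 80S the 1M7 reactivities of A68 and U66 were 0.34 and -0.08. The adenosine run followed, with 5.90 at A182, 3.71 at A180 and 3.11 at A181. A105, which reports on A104, reached 3.27. A26, which reports on C25, reached 3.05 with DMS against 0.90 with 1M7 and -0.32 with NAI in 80S.

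On 80S the lists of the 3 reagents overlapped in part. Of 70 stops at 0.3 or more with 1M7 and 47 with NAI (11.8% of all 1799), 29 were shared, or 41.4% and 61.7% of each list. Of the 70 and the 55 with DMS, 34 were shared, or 48.6% and 61.8%. The 13 stops that reached 0.3 with each reagent were A68, G69, A72, U73, U77, G81, A105, U137, A179, A180, A182, A218 and U238.

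**Figure D4:**
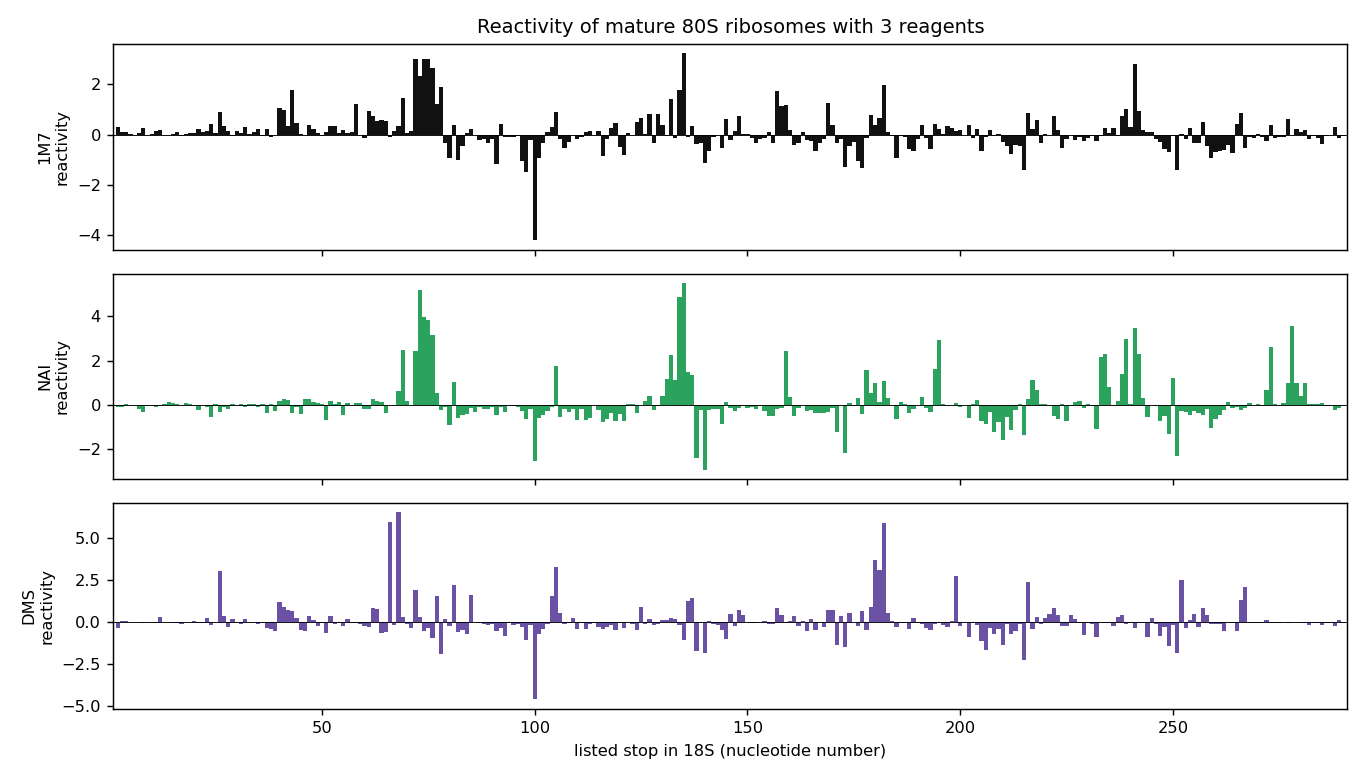
Reactivity of 80S ribosomes with 1M7 (top), NAI (middle) and DMS (bottom) at listed stops 2 to 290, each in units of its own divisor. All 3 reagents mark stops 72 and 182, NAI alone rises at stops 233, 234 and 278, and DMS peaks at 66 and 68. The deep negative bar at stop 100 marks treated rates below a high untreated rate.

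A minimum free energy fold of nucleotides 1 to 290 by RNAfold, with no probing data and no protein, paired 164 nucleotides at -65.7 kcal/mol. In a fold of the whole 18S, 134 of these nucleotides kept their partner. Reactive stops were read against this fold by the state of the 5′ neighbour. In the mean of the 8 1M7 columns, 21.6% of 125 unpaired and 17.7% of 164 paired nucleotides reached 0.3. The shares were 24% and 14.6% in 80S-like, 24% and 24.4% in 80S, and 16% and 23.8% in Rio2. Among the 1M7 columns, only 80S and Rio2 had the higher share in paired nucleotides. The fold placed stops 72 to 78, the most reactive stretch of the region, on the loop and 3′ strand of a hairpin between nucleotides 63 and 79, whose stem had a mean 1M7 reactivity of 0.58. It is a prediction for naked RNA.

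Stop A100 had the highest untreated rate of the region in 3 of the 5 untreated columns, while U82 led in Tsr1 DMSO with 0.119 and A140 in 80S DMSO with 0.154. Without reagent, stop A100 had a rate of 0.152 in the mid-early pool, 0.209 in the late pool, 0.0811 in Tsr1 DMSO, 0.121 in 80S DMSO and 0.251 in the DMS control. Nucleotide A100 is a site of 2′-O-methylation guided by snR51. By the rule used here, stop A100 reports on C99, and a stop caused by A100 itself would be listed at U101. Untreated rates at U101 were 0.0217 to 0.0669, and a link of either stop to the methylation was not tested. The treated rates at stop A100 were lower than the matched untreated rates, so its reactivity was below 0 in all 12 treated columns, from -4.60 to -0.85. They were 0.0576 to 0.0896 in the mid-early columns, 0.0415 to 0.119 in the late columns and 0.0840 with DMS. At the other ribose-methylated site, A28 (guided by snR74), untreated rates were 0.0152 to 0.0361 at the listed site and 0.0047 to 0.0095 at stop U29. The pseudouridines at 106, 120 and 211 had untreated rates at the listed site of 0.0100 to 0.0328. At the stops on their 3′ side the rates were 0.0091 to 0.0161 at C107, 0.0314 to 0.0590 at U121 and 0.0347 to 0.0646 at U212. A link of these stops to the pseudouridines was not tested.

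Between the 18S and 20S untreated columns, 26 nucleotides of the region were higher in all 3 columns of 18S than in both of 20S (7.62% of all 1799), and 36 were lower (21% of all). The lower share in the region was 12.5%, against 22.6% in the rest of 18S. The largest decrease was the adenosine run A218 to A221. At A219 the rate was 0.0483 and 0.0561 in the 20S columns, the mid-early control and Tsr1 DMSO, and 0.0354, 0.0317 and 0.0319 in the late control, 80S DMSO and DMS control. The largest increase was at A251, with 0.0829 and 0.0602 in the 20S columns and 0.0924, 0.122 and 0.112 in those of 18S. A222, called above, lies in the same adenosine run, and its own rates without reagent were 0.0658 in the 20S pool and 0.0635 in the 18S pool.

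**Figure D5:**
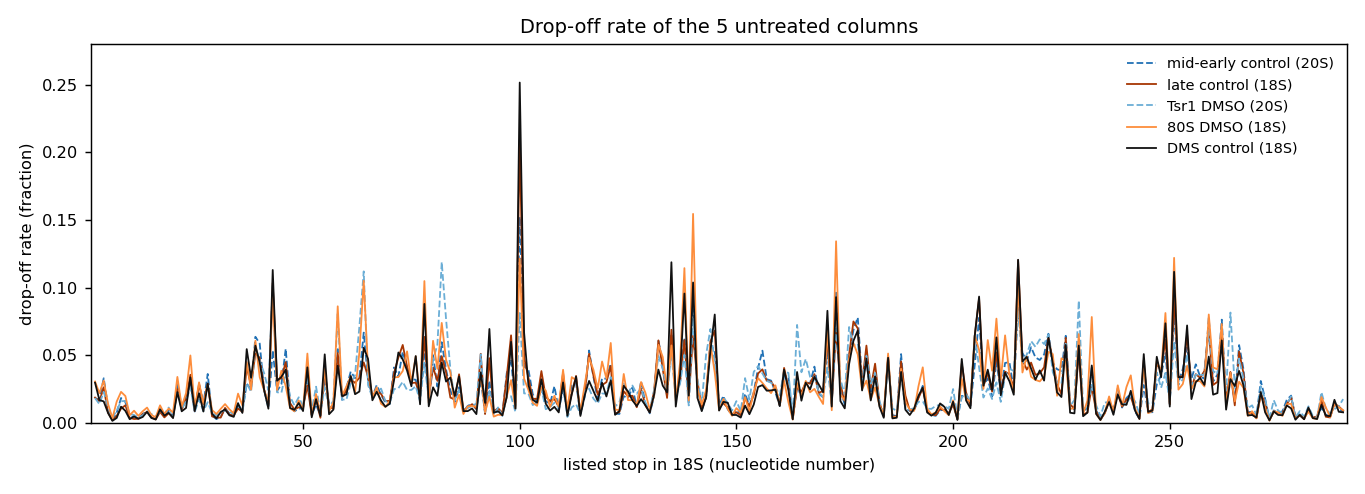
Drop-off rate as a fraction (vertical axis) at listed stops 2 to 290 in the 5 untreated columns, with 20S RNA in dashed and 18S RNA in solid lines. The peak at stop 100 runs from 0.0811 in Tsr1 DMSO to 0.251 in the DMS control.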

How the data were processed

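The authors deposited 1 table of drop-off rates, each a fraction from 0 to 1, for 1800 nucleotides in 17 columns, and each column is the mean of a group's samples. Novoalign 2.07 is named per the submitters' processing notes. The formula of the rates, the way of averaging and the reference were not given in the sources used here. The table holds no read counts, so depth is unknown and no counting interval was set. Single replicates were not analysed here. The 18S genes RDN18-1 and RDN18-2 are each 1800 nucleotides long in the RefSeq table used for names, and since the deposited table names no build no chromosomal coordinates are given.

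Sequences come from the nucleotide column of the deposited table, written with U. Both NAI columns of pre-rRNA had Tsr1 DMSO as control, the NAI column of 80S had 80S DMSO, and DMS had its own. The stages follow the strains in the 2 controls, with Rio1 placed late from background knowledge. Limma 3.58.1 in R 4.3.3 was used with a mean-variance trend over all 18S, a pseudocount of 0.1 and p-values adjusted over all tested nucleotides. The pseudocount makes log2 differences of low values smaller, and values below 0 count as 0. Compared with linear reactivity, the log2 scale still gives changes of low values more weight. A257 and U240 differed by 0.37 and -0.62 in linear reactivity, and by 1.82 and -1.28 in log2. Columns of a stage share 1 control, whose error the p-values do not cover. Folding used RNAfold 2.7.2. The fit was also run on simulated data with independent noise, which does not cover the shared controls, and no outcome of that run is used here. Python 3.11.15 was used with numpy 2.4.6 and pandas 2.3.3.

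Nucleotides could be named if they were called, if their stages did not overlap, or if they were among the highest of a column or the largest differences of a pair. Others are named as members of a counted list or as chosen after their values were seen. The region, the lists and the tests were chosen with earlier results of these data known. Alternatives were the pseudocount, the filter, the control, the divisor, the scale and leaving out each purification in turn.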

Additional observations from a re-analysis of the deposited data

Results flagged for a closer look

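At 25 of the named stops and for the mean over the region, 52 groups of 4 columns were examined for a column far from the other 3, and 4 had one. Chance gives about 1 in 20 groups. At A26 the Rio2 reactivity of 0.77 stood above the other mid-early columns. Among the late columns 80S stood apart at U74 with 3.01, at A135 with 3.24 and at A266 with 0.86. In each of these 3 cases the other late columns were Nob1, Rio1 and 80S-like, all with 20S pre-rRNA, while 80S had 18S rRNA.

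At the 5 stops that rose with 1M7 the NAI differences were below 0, and the difference between reagents was not tested. Over the region the median NAI difference was also below 0, at -0.021 for Rio1 minus Tsr1 and -0.016 for 80S minus Tsr1. With NAI, Rio1 minus Tsr1 and 80S minus Tsr1 were -0.15 and -0.37 at U8, and -1.20 and -1.71 at A26. They were -0.57 and -0.57 at A222, -0.013 and -0.29 at A257, and -0.34 and -0.28 at A266. The 80S value uses another DMSO column than Tsr1 does.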

How the results depend on the processing

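No paired analysis was possible because the deposited columns are means that carry no replicate numbers. The same 6 nucleotides were called with a pseudocount of 0.05 or 0.2 and with the mean of the top 10% as divisor. With a mean reactivity of at least 0.2 and with 1 common divisor 4 were called, all among the 6. With no filter 3 were called, 2 of them among the 6. With the mean of both controls 2 were called and with linear reactivity 1, all among the 6. With no control subtracted 1 of 240 tested was called, which is not among them. Leaving out 1 purification gave 1 to 32 calls, the 32 without 80S. Leaving out 80S gave 26 with the mean of both controls, and 47 of 240 tested with no control subtracted. Among the 6 calls none changed direction, and A266 was lost only with no control subtracted. The mean log2 difference over the region, 0.00136, was -0.0189 with a pseudocount of 0.05, -0.172 with no control subtracted, -0.00597 with the mean of both controls, and -0.0357 to 0.0409 with 1 purification left out, the lowest without 80S. The region minus the rest of 18S, 0.0327, was 0.102 with the mean of both controls, and with 1 purification left out it ran from -0.0173 without 80S to 0.0749 without Rio1. Counts of nucleotides 0.5 or more apart fell with the top 10% as divisor and with no control subtracted, to 53 and 18 for NAI on Tsr1 with 80S, 57 and 14 for 80S-like with 80S, 47 and 15 for Tsr1 with Rio1, 10 and 0 for Enp1 with Tsr1, and 13 and 0 for Nob1 with Rio1. With no control subtracted the divisor is larger by construction. DMS-reactive adenines and cytosines were 28 when read at the listed position. Read depth is unknown, so what it limits cannot be given.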
